A study of Mus musculus with 12 samples.

Results

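The average effect of soluble ErbB4 (sErbB4) on gene expression was taken over cultures with and without a γ-secretase inhibitor. It used all 12 of the 12 libraries of the series: 6 libraries with sErbB4 (3 sErbB4 and 3 DAPT+sErbB4) were set against 6 without it (3 Vehicle and 3 DAPT), with DAPT state as a covariate. The genes were the 19336 of 21312 loci that carry a gene name, and 15656 of them passed the filter on low counts and were tested. The RNA came from neuronal cultures of WT mouse hippocampus, prepared at P4. sErbB4 cultures received 20 nM of recombinant soluble ErbB4 ectodomain for 4 h, and Vehicle cultures received PBS for the same time. The study's methods name the protein both as a mouse ErbB4 Fc chimera and as human, and which was used is not settled here. DAPT+sErbB4 cultures were given 20 µM of the inhibitor DAPT after 8 days in culture, before the same 4 h of sErbB4, and DAPT cultures were given DAPT and then PBS. Cultures without DAPT received DMSO in its place. Each library of a condition came from a plating of its own, and which litter a plating came from was not used here. The same 3 libraries of Vehicle or of DAPT served every comparison within their DAPT state.

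Neuregulin 1 (Nrg1) is a membrane-bound ligand of the receptor tyrosine kinase ErbB4. In its type III form it can also act as a receptor: when ErbB4 binds it, signals start at the membrane of the Nrg1-expressing cell, and γ-secretase can release an intracellular domain that enters the nucleus. DAPT blocks γ-secretase and so also the cleavage of other substrates, including Notch receptors. A difference with sErbB4 that is present in both DAPT states is therefore one that was seen with γ-secretase active and with γ-secretase inhibited.

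The libraries held 36.5 to 54.4 estimated counts in units of 1000000, of which 18.7 to 30.8 fell on named loci. The ribosomal repeat Rn45s held 31.4 to 44.6% of the named counts, and 16374 to 17115 genes were detected per library. None of 6 library measures differed with sErbB4 at an unadjusted p under 0.05 (exact permutation test within DAPT states, two-sided, 400 arrangements). The share of counts on loci with no gene name was 43.4 to 51.6% with sErbB4 and 47.0 to 51.8% without it (exact p = 0.21). On the second principal component (9.05% of the variance) sErbB4 replicate 1 was at 9.13, far from the other two sErbB4 libraries at -5.88 and -10.3, and Vehicle replicate 3, at 9.83, lay nearest to it. Without sErbB4 replicate 1, the share of counts on unnamed loci differed by -2.86 percentage points (with minus without sErbB4, exact p = 0.015). Whether it bears on the results below was not tested. Neuronal markers were detected, with Tubb3 at a mean of 371 normalized counts per 1000000 named counts (CPM) and Snap25 at 182 CPM. The astrocyte marker Gfap stood at 4407 CPM. In Vehicle libraries the astrocyte marker list summed to 14124 to 15587 CPM, against 1590 to 1686 CPM for the neuron marker list. Such sums are not shares of cells. Markers of endothelium were near 0, their sum being 5.48 to 7.81 CPM in every library.

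The 2 genes with the smallest p in the average effect were Syp and Adamts1. Syp, which encodes the synaptic vesicle protein synaptophysin, stood at 262, 262 and 261 CPM in sErbB4 cultures and at 229.8, 237 and 233 CPM in Vehicle cultures. With DAPT it stood at 349.7, 335 and 337 CPM in DAPT+sErbB4 cultures and at 290.4, 299 and 296 CPM in DAPT cultures. Within each DAPT state every library with sErbB4 was above every library without it. The average log2 fold change of Syp was 0.19 (SE 0.02), a fold of 1.14 (edgeR adjusted p = 0.00773).

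Adamts1, which encodes a secreted metalloprotease that cleaves matrix proteoglycans, moved the other way. Its levels were 48.5, 49.0 and 51.3 CPM in sErbB4 cultures and 58.2, 56.1 and 58.7 CPM in Vehicle cultures. They were 23.4, 23.5 and 24.6 CPM in DAPT+sErbB4 cultures and 28.5, 28.1 and 28.5 CPM in DAPT cultures. Every library with sErbB4 was below every library without it in the same DAPT state, and the average log2 fold change was -0.23 (SE 0.03, edgeR adjusted p = 0.00773). Nes, the gene of the intermediate filament nestin of neural stem cells and radial glia, was at 102, 101 and 103 CPM with sErbB4, against 112, 113 and 115 CPM with Vehicle. With DAPT it was at 63.2, 63.8 and 63.4 CPM in DAPT+sErbB4 cultures, against 77.9, 75.5 and 73.1 CPM in DAPT cultures. Nes fell by 0.20 on the log2 scale (SE 0.03, edgeR adjusted p = 0.0187), again with no overlap in either state.

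**Figure D1:**
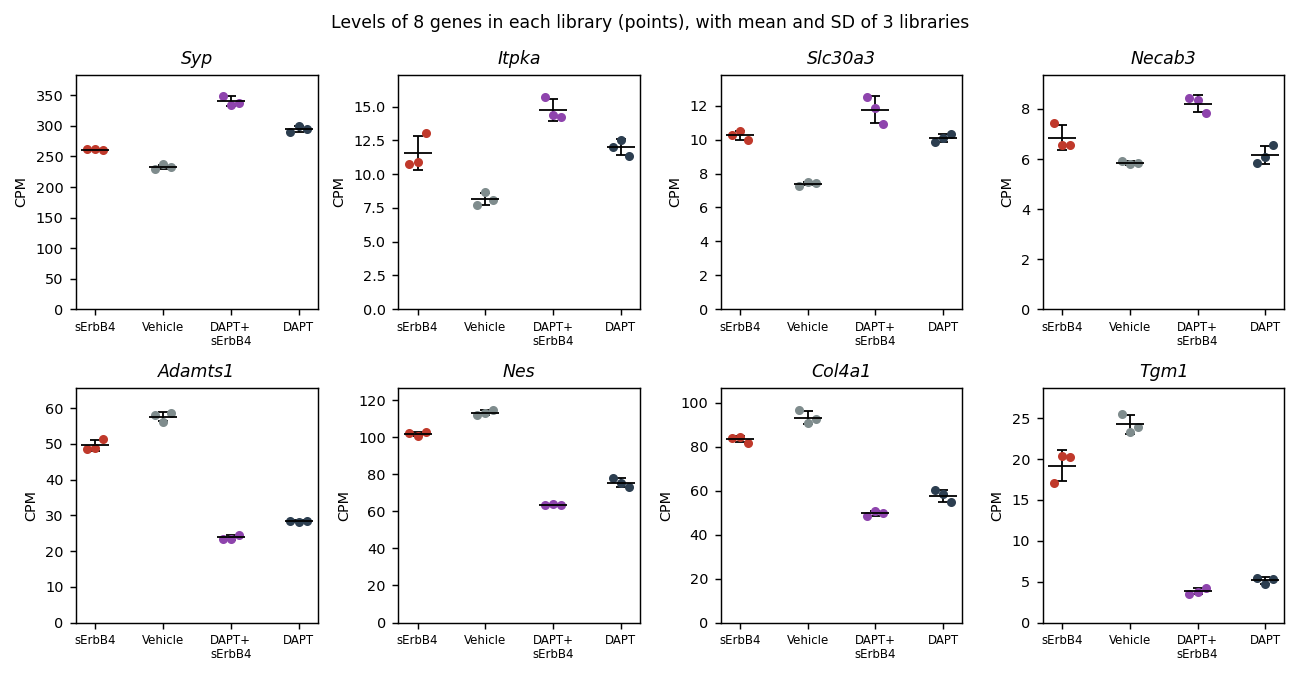
Levels in CPM (counts per 1000000 named counts after normalization, y axis from 0) of 4 genes that were higher with sErbB4 (top) and 4 that were lower (bottom) in each of the 12 libraries; points are libraries, horizontal bars are means and error bars are SDs of 3 libraries. In each panel the sErbB4 points lie on one side of the Vehicle points and the DAPT+sErbB4 points lie on the same side of the DAPT points, while the level itself differs between DAPT states.

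In all, 26 genes passed an adjusted p of 0.05 over the 15656 tested, which is 0.166% of them: 12 rose (0.0766%) and 14 fell (0.0894%) with sErbB4. Most changes were small. With a further limit of 0.32 on the log2 scale in either direction, 5 genes (0.0319%) were called, 3 higher (0.0192%) and 2 lower (0.0128%). At an unadjusted p under 0.05 there were 2009 genes (12.8%), 993 higher and 1016 lower. Of the genes tested, 205 (1.31%) were higher and 190 (1.21%) were lower in every library with sErbB4 than in every library without it in both DAPT states, and these included each of the 26.

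The 3 genes called higher were Itpka, Slc30a3 and Necab3. Itpka, an inositol trisphosphate 3-kinase that also bundles actin in dendritic spines, was at 10.7, 10.9 and 13.0 CPM in sErbB4 cultures and at 7.75, 8.65 and 8.10 CPM in Vehicle cultures. With DAPT it was at 15.7, 14.4 and 14.2 CPM in DAPT+sErbB4 cultures and at 12.0, 12.6 and 11.4 CPM in DAPT cultures. Its groups did not overlap, and its average log2 fold change was 0.39 (SE 0.06, edgeR adjusted p = 0.0328).

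Slc30a3 encodes ZnT3, the transporter that loads zinc into synaptic vesicles. It was at 10.3, 10.5 and 9.98 CPM with sErbB4, against 7.28, 7.47 and 7.46 CPM with Vehicle. It was at 12.5, 11.9 and 10.9 CPM in DAPT+sErbB4 cultures, against 9.86, 10.1 and 10.3 CPM in DAPT cultures. Its average log2 fold change was 0.34 (SE 0.05, edgeR adjusted p = 0.0328). It also passed both limits against Vehicle alone, by 0.47 (SE 0.06, edgeR adjusted p = 0.0186), and with DAPT the change was 0.22 (SE 0.05, edgeR adjusted p = 0.33). The difference of these effects was 0.25 (SE 0.08), with an edgeR unadjusted p of 0.0152 and an adjusted p of 1.

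Necab3, a calcium-binding protein of neurons, was at 7.45, 6.58 and 6.54 CPM with sErbB4, against 5.91, 5.79 and 5.82 CPM with Vehicle. It was at 8.44, 8.36 and 7.82 CPM in DAPT+sErbB4 cultures, against 5.85, 6.08 and 6.57 CPM in DAPT cultures. The average log2 fold change of 0.32 (SE 0.05, edgeR adjusted p = 0.0451) lay just above the fold limit.

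Tgm1, a transglutaminase that crosslinks proteins, was called lower. It was at 17.0, 20.4 and 20.2 CPM in sErbB4 cultures, against 25.5, 23.3 and 23.9 CPM in Vehicle cultures. With DAPT its level was lower in both groups, at 3.48, 3.76 and 4.23 CPM in DAPT+sErbB4 cultures and 5.50, 4.69 and 5.29 CPM in DAPT cultures. The average log2 fold change was -0.37 (SE 0.06, edgeR adjusted p = 0.0418), with no overlap in either state.

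The second gene called lower was Diablo, which encodes a mitochondrial protein that promotes apoptosis when released. With a mean of 3.46 CPM it lay below the level set for naming and was chosen after its values were seen. It was at 0.564, 0.383 and 0.205 CPM in sErbB4 cultures, against 7.24, 9.27 and 0.956 CPM in Vehicle cultures. With DAPT it was at 1.13, 0.796 and 0.356 CPM in DAPT+sErbB4 cultures, against 9.67, 5.77 and 5.19 CPM in DAPT cultures. The log2 fold change was -3.49 (SE 0.49, edgeR adjusted p = 0.0249), but one Vehicle library was close to the sErbB4 libraries. In GENCODE vM21 (GRCm38) Diablo lies on chromosome 5, from 123509765 to 123524176 on the minus strand. How reads were assigned at this locus was not tested.

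The calls depended on single libraries. Leaving out each library in turn gave between 0 and 9 called genes. None were called without Vehicle replicate 1, sErbB4 replicate 2, any DAPT replicate, or DAPT+sErbB4 replicate 1 or 2, while 9 were called without sErbB4 replicate 1, 4 without sErbB4 replicate 3, 2 without Vehicle replicate 2 and 1 each without Vehicle replicate 3 and DAPT+sErbB4 replicate 3. By adjusted p alone, 2 genes passed without DAPT replicate 3 and 75 without sErbB4 replicate 1, against 26 with all libraries. Each of the 26 kept its direction in every alternative in which it was tested.

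Of the other genes that rose, several have known roles in neurons. Chn1 (log2 fold change 0.19, edgeR adjusted p = 0.0382) encodes α-chimaerin, a Rac GTPase-activating protein of axons and dendrites. Dync1i1 (0.16, edgeR adjusted p = 0.0412) encodes a neuronal intermediate chain of the dynein motor. Caln1 (0.16, edgeR adjusted p = 0.0451) encodes calneuron, a neuronal calcium sensor, and Wipf3 (0.17, edgeR adjusted p = 0.0471) is a member of the WASP-interacting protein family. Fsd1 (0.30, edgeR adjusted p = 0.0273), Stum (0.29, edgeR adjusted p = 0.0186) and the ubiquitin hydrolase Uchl3 (0.23, edgeR adjusted p = 0.0278) also rose.

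The other genes that fell included components of basement membrane. Lamc1, the laminin γ1 chain, was at 58.9, 54.04 and 54.2 CPM with sErbB4, against 64.6, 63.8 and 65.0 CPM with Vehicle, and at 37.6, 40.4 and 39.0 CPM in DAPT+sErbB4 cultures, against 46.0, 44.3 and 43.6 CPM in DAPT cultures. Its log2 fold change was -0.20 (SE 0.03, edgeR adjusted p = 0.0273). Col4a1, the α1 chain of collagen IV, was at 84.1, 84.2 and 81.8 CPM with sErbB4, against 96.5, 90.6 and 92.8 CPM with Vehicle, and at 48.6, 50.8 and 49.8 CPM in DAPT+sErbB4 cultures, against 60.1, 58.5 and 54.7 CPM in DAPT cultures. Its log2 fold change was -0.19 (SE 0.03, edgeR adjusted p = 0.0355). In both genes every library with sErbB4 was below those without it in the same DAPT state.

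The remaining genes that fell are of several kinds. Sox6, a transcription factor of progenitors and glia, fell by 0.19 on the log2 scale (edgeR adjusted p = 0.0366), and Nfe2l2, the regulator of antioxidant genes also called NRF2, fell by 0.15 (edgeR adjusted p = 0.0355). S1pr3, a receptor for sphingosine 1-phosphate, fell by 0.23 (edgeR adjusted p = 0.0278), and Padi2, a peptidylarginine deiminase, by 0.19 (edgeR adjusted p = 0.0355). Myo1e, an unconventional myosin, fell by 0.20 (edgeR adjusted p = 0.0249), Slf2, a factor of the SMC5/6 DNA repair pathway, by 0.25 (edgeR adjusted p = 0.0273) and Plce1, a phospholipase C, by 0.17 (edgeR adjusted p = 0.0471). Micall2, a Rab-binding protein of cell junctions, fell by 0.25 (edgeR adjusted p = 0.0471) and was chosen after its values were seen.

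Promoter sequence of Itpka, among the genes that rose most, and of Adamts1, the gene that fell with the smallest p, is given as an example. Elements other than the GC box and CCAAT were not searched for, so the kind of start site was not determined. Each line gives the 100 bases before the RefSeq start site (GRCm38.p6), 5′ to 3′ on the gene's strand, with capitals marking a GC box (GGGCGG or CCGCCC, either strand). Itpka is at chr2:119742237-119742336 (plus strand) and Adamts1 at chr16:85803114-85803213 (minus strand).
Itpka: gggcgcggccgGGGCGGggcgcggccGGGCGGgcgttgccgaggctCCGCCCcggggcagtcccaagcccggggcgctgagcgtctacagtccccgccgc
Adamts1: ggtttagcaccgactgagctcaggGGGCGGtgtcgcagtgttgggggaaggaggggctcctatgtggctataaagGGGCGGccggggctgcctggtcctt
A GC box occurred in the 250 bases before the start of 8 of 11 genes that rose and 9 of 12 that fell and have a promoter in the table, against 7423 of 11891 tested genes (62.4%), so both genes carry a feature found in most promoters. CCAAT (either strand) occurred in 5 of 11 and 6 of 12, against 40.5% of the tested genes.

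Set side by side, the effects of sErbB4 without and with DAPT share no library. Over the 10888 genes that averaged 5 CPM or more, they correlated across genes at Pearson's r of 0.26 and Spearman's rho of 0.348, and 6730 genes (61.8%) had the same sign. Over all 15656 genes tested, low ones included, Pearson's r was 0.0356 and Spearman's rho 0.221. Genes are not independent replicates, and the values share the normalization of the 12 libraries. Against Vehicle alone, sErbB4 gave 5 called genes (0.0319%), and in DAPT+sErbB4 against DAPT none passed, the smallest edgeR adjusted p being 0.0795, with 1442 genes (9.21%) at an unadjusted p under 0.05 and 8 genes called by DESeq2. The median absolute average effect over these 10888 genes was 0.05 on the log2 scale, and the 95th percentile was 0.17.

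**Figure D2:**
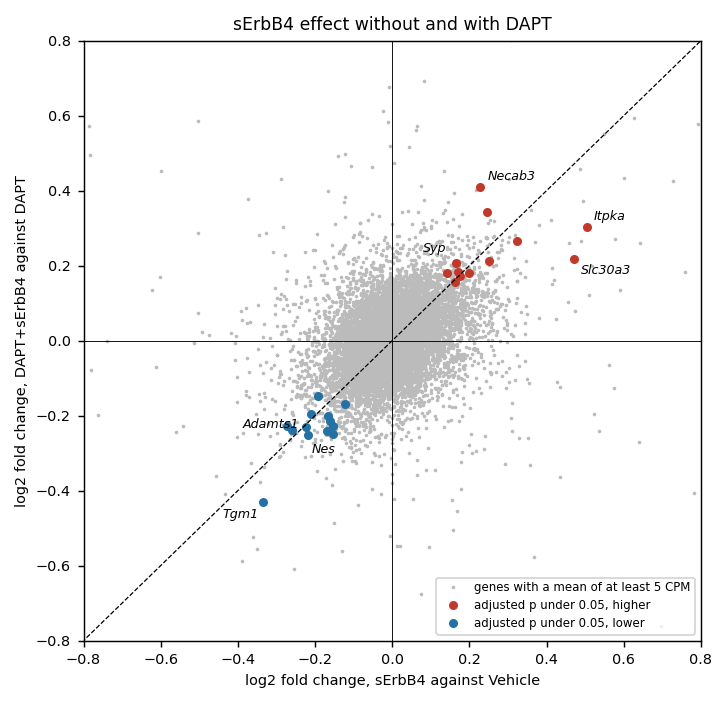
Log2 fold change of sErbB4 against Vehicle (x axis) and of DAPT+sErbB4 against DAPT (y axis) for genes that averaged 5 CPM or more (grey), with those under an adjusted p of 0.05 in the average effect in red (higher) and blue (lower); the dashed line marks equal effects and 34 genes lie outside the axes. The coloured genes lie in the upper right or lower left quadrant, near the dashed line, with Itpka and Slc30a3 to its right and Necab3 above it. They were selected by the average of the plotted effects, which favours such a position.

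A single gene (0.00639% of those tested) passed the test of the difference between the effects. Htd2, a mitochondrial fatty acid synthesis enzyme, was at 0 in all 3 sErbB4 libraries, against 3.13, 2.70 and 3.78 CPM in Vehicle libraries. It was at 2.44, 3.11 and 4.13 CPM in DAPT+sErbB4 libraries, against 2.65, 3.40 and 3.27 CPM in DAPT libraries. Taking 3 counts per library as the limit of a count of 0, the mean Vehicle level was at least 26.09-fold above the sErbB4 libraries. The lowest Vehicle library was at least 21.98-fold above them. The test of the difference between the effects gave an edgeR adjusted p of 0.00156. Htd2 shares its locus with Rpp14, a subunit of ribonuclease P, which stood at 19.7, 20.4 and 21.7 CPM in sErbB4 libraries, against 17.0, 15.5 and 15.8 CPM in Vehicle libraries. The 2 genes together were at 19.7 to 21.7 CPM in sErbB4 cultures and 18.2 to 20.2 CPM in Vehicle cultures, so the assignment of reads between them is uncertain and Htd2's own average effect did not pass (log2 fold change -1.53, edgeR adjusted p = 0.413). Among genes of at least 5 CPM the smallest adjusted p of the difference was 0.268. The 5 of them with the smallest p were Eln, Cox20, Ptpn4, Zfp791 and Atp5c1, whose average effects were -0.12, -0.40, -0.15, -0.43 and 0.01, none past the limit.

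Neuronal and synaptic gene lists lay above 0 on average. These lists, like the others below, were compared by counts and medians only. Of 13 neuron markers, 13 had a positive log2 fold change (median 0.12), as did 25 of 26 synaptic vesicle and release genes (median 0.12), 23 of 26 voltage-gated ion channel genes (median 0.12) and 20 of 26 postsynaptic scaffold and glutamate receptor genes (median 0.08). Among the 15656 genes tested, 7829 (50%) were positive, with a median of 0.00. Within the synaptic vesicle list Syp rose, and 18 members had an unadjusted p under 0.05 in the positive direction, against 6.34% of all genes tested. Snap25, a SNARE protein of vesicle fusion, had a log2 fold change of 0.20 (edgeR adjusted p = 0.0581), Syn2, a synapsin, 0.13 (edgeR adjusted p = 0.0859) and the kinase gene Camk2a, on the postsynaptic list, 0.16 (edgeR adjusted p = 0.0659). Slc17a6, a vesicular glutamate transporter, was the exception among the vesicle genes, at -0.14.

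A list of nuclear long noncoding RNAs, Rn45s and housekeeping genes, kept as a sign of RNA quality, was mostly positive by member. Of its 9 members 7 were positive and none passed the limit. Its median was 0.05, and between 0.00435 and 0.11 in the 22 alternatives. Its summed level, most of it Rn45s, was 339510 to 432130 CPM in sErbB4 libraries, against 438970 to 484230 CPM in Vehicle libraries, and 405690 to 473000 CPM in DAPT+sErbB4 libraries, against 270790 to 479210 CPM in DAPT libraries. The sum was thus lower in every sErbB4 library than in every Vehicle library, while with DAPT the groups overlapped and the median was higher in DAPT+sErbB4 libraries. The nuclear RNA Malat1 was at 3690, 971 and 1031 CPM with sErbB4, against 1269.7, 1278 and 2478 CPM with Vehicle, so sErbB4 replicate 1 and Vehicle replicate 3 were the highest of these 6 libraries. With Rn45s left out of the counts, the medians were 0.12 for neuron markers, 0.12 for synaptic vesicle genes, -0.14 for collagens and -0.14 for matrix genes, and without sErbB4 replicate 1 they were 0.125, 0.121, -0.152 and -0.138 for the same lists.

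Markers of granule cells were positive in 8 of 8 tested (median 0.13) and those of GABAergic interneurons in 12 of 16 (median 0.16). Synpr, a synaptoporin of granule cell axons, had a log2 fold change of 0.18 (edgeR adjusted p = 0.0582), and Cck, a neuropeptide of a class of interneurons, of 0.37 (edgeR adjusted p = 0.0572). Cck was at 55.9, 61.9 and 68.3 CPM with sErbB4, against 43.6, 53.1 and 54.5 CPM with Vehicle, and at 104.9, 97.4 and 91.8 CPM in DAPT+sErbB4 cultures, against 69.4, 79.1 and 69.8 CPM in DAPT cultures. The interneuron markers were not uniform: Pvalb had a log2 fold change of -0.42 (edgeR adjusted p = 0.087) and Reln of -0.18. None of the members of these 2 lists passed the adjusted p limit.

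Genes of the extracellular matrix were below 0 throughout. All 16 collagen genes tested had a negative log2 fold change (median -0.14), as did all 32 matrix glycoprotein and proteoglycan genes (median -0.14), and 1 of each list, Col4a1 and Lamc1, passed the adjusted p limit. At an unadjusted p under 0.05 there were 11 of the 16 and 17 of the 32 in the negative direction, against 6.49% of all genes. The summed level of the collagen list was 380.5 to 391 CPM in sErbB4 libraries, against 414 to 426 CPM in Vehicle libraries, and 257 to 268 CPM in DAPT+sErbB4 libraries, against 285 to 309 CPM in DAPT libraries. The groups of collagen sums did not overlap within either DAPT state. The summed matrix glycoproteins and proteoglycans were 3958 to 4070.2 CPM in sErbB4 libraries, against 4023 to 4303 CPM in Vehicle libraries, and 3703 to 3849 CPM in DAPT+sErbB4 libraries, against 3948 to 4202 CPM in DAPT libraries. These sums overlapped without DAPT and did not with DAPT. Thbs1, the matricellular thrombospondin, had a log2 fold change of -0.17 (edgeR adjusted p = 0.0531) and Tnc, tenascin C, of -0.18 (edgeR adjusted p = 0.082).

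Targets of serum response factor and YAP, which respond to actin and tension, were negative in 13 of 15 (median -0.16), with Ccn2 at -0.26 (edgeR adjusted p = 0.0531), and none passed the limit. TGF-β and BMP targets were negative in 14 of 14 (median -0.12), with none past the limit. Of the 14 Notch targets and components, a pathway that signals through γ-secretase, 13 were negative (median -0.09), again with none past the limit.

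Markers of non-neuronal cells were mostly below 0. Radial glia and neural stem markers were negative in 11 of 11 (median -0.09), astrocyte markers in 14 of 15 (median -0.09), oligodendrocyte precursor markers in 9 of 10 (median -0.10) and pericyte, smooth muscle and fibroblast markers in 10 of 10 tested (median -0.11). The exception among the astrocyte markers was Aldoc, at 0.16. The summed astrocyte markers were 13865 to 14266 CPM in sErbB4 libraries, against 14124 to 15587 CPM in Vehicle libraries, and 14397 to 15014 CPM in DAPT+sErbB4 libraries, against 15022 to 16373 CPM in DAPT libraries. The summed neuron markers were 1718 to 1837 CPM in sErbB4 libraries, against 1590 to 1686 CPM in Vehicle libraries, and 2006 to 2109 CPM in DAPT+sErbB4 libraries, against 1842 to 1938 CPM in DAPT libraries. In bulk RNA fewer cells of a type and less RNA per cell cannot be told apart. With sErbB4 the matrix and radial glial medians had the same sign as the astrocyte median. The synaptic medians had the same sign as the neuron marker median. Whether these levels vary together across libraries was not tested. The lists are not fully separate: Snap25 is on both the neuron marker and the synaptic vesicle list, and the radial glial list is itself a marker list. What part the cell makeup had in these values was not tested. Microglial markers were negative in 10 of 13 (median -0.05) and endothelial markers in 5 of 7 tested (median -0.03), but within each DAPT state the endothelial median was positive, at 0.05 without DAPT and 0.03 with DAPT, with 4 of 7 members positive in each. Markers of myelinating oligodendrocytes were negative in 8 of 8 tested (median -0.16) and those of ependyma and choroid plexus in 9 of 9 (median -0.14).

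**Figure D3:**
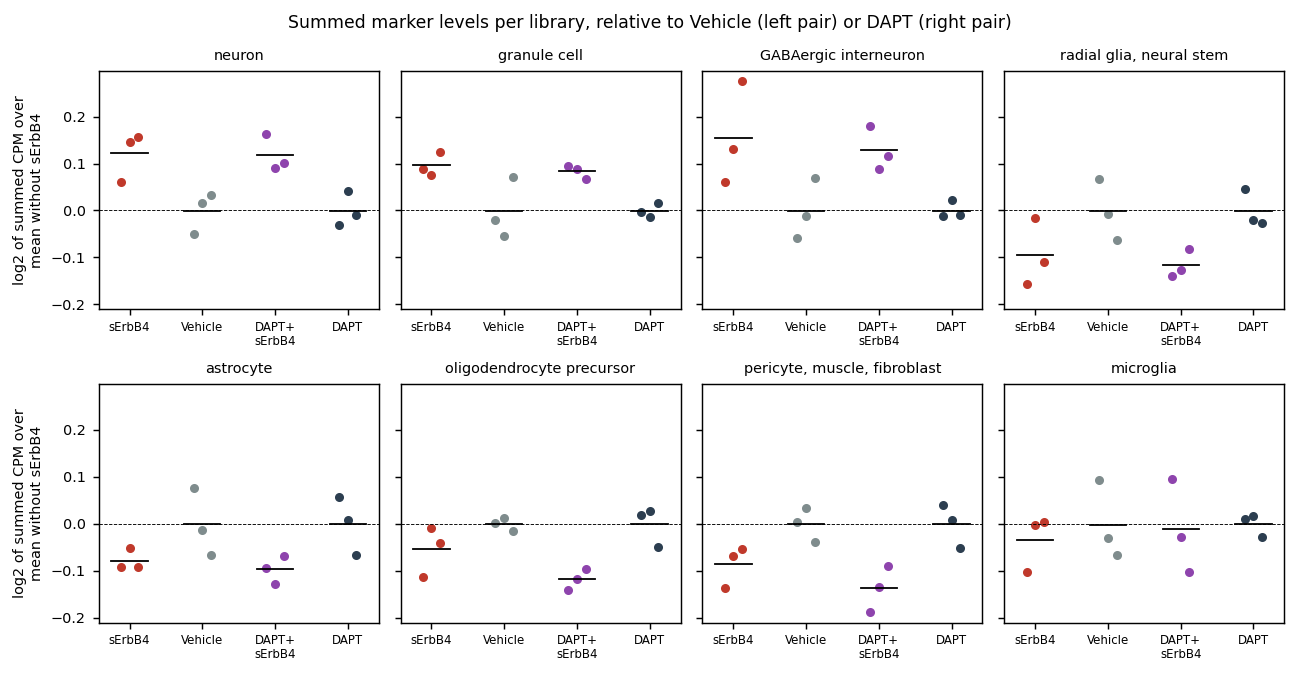
Log2 of the summed CPM of each marker list in each library, relative to the mean of the condition without sErbB4 in the same DAPT state (y axis); points are libraries, bars are means of 3 libraries and the dashed line is the matching condition's mean. The neuron and granule cell sums with sErbB4 lie above those without it in both DAPT states, the radial glia and pericyte means lie below the line, and the microglial points straddle it.

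**Figure D4:**
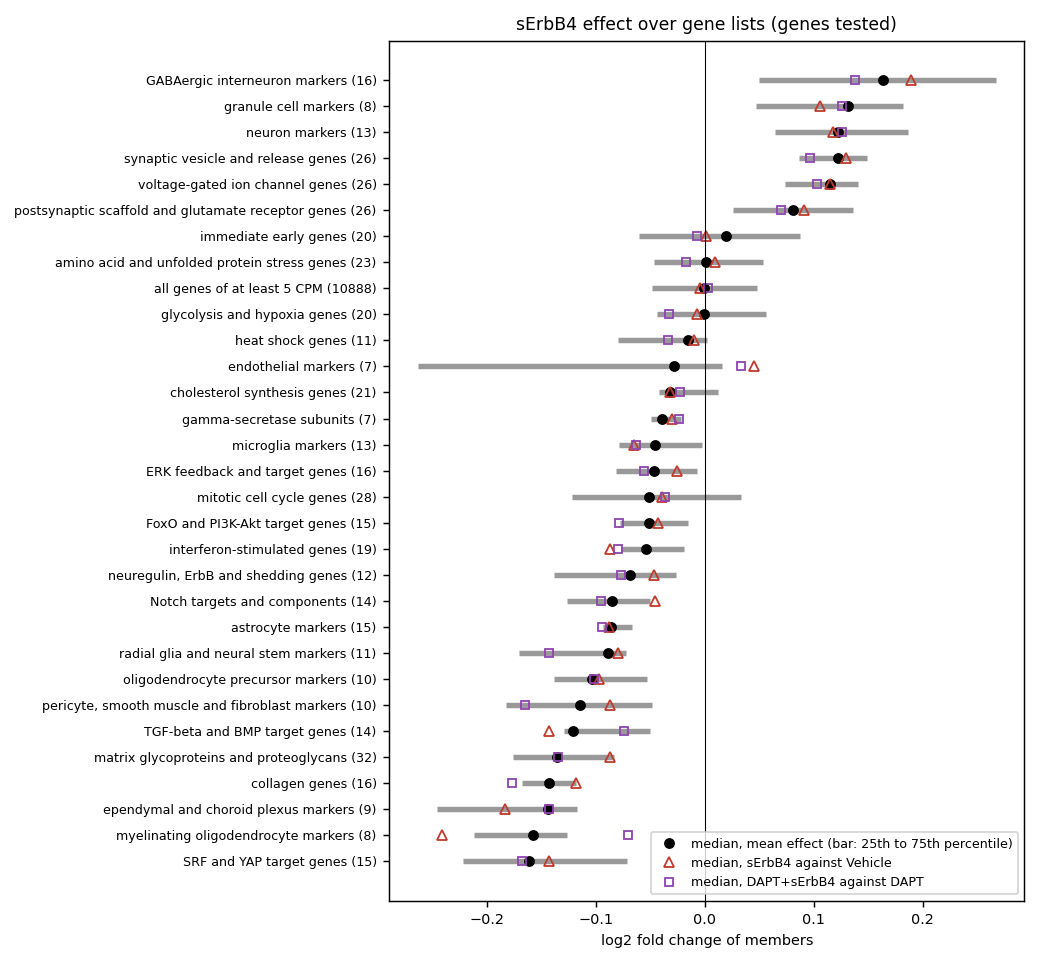
Median log2 fold change of each gene list with the number of members tested in parentheses (x axis, log2 fold change; black points, average effect, with grey bars from the 25th to the 75th percentile of members; red triangles, sErbB4 against Vehicle; purple squares, DAPT+sErbB4 against DAPT). Neuronal and synaptic lists lie to the right of 0 in both DAPT states and the matrix, glial and stromal lists to the left, while the medians of the 10888 genes of at least 5 CPM lie near 0.

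Genes of the pathway itself did not pass the limit. Nrg1 had 8.65, 7.63 and 7.49 CPM in sErbB4 cultures and 7.87, 7.81 and 9.10 CPM in Vehicle cultures, and 13.5, 11.9 and 11.9 CPM in DAPT+sErbB4 cultures and 15.3, 13.7 and 13.7 CPM in DAPT cultures. Its libraries overlapped without DAPT, and its average log2 fold change was -0.14 (SE 0.06, edgeR adjusted p = 0.367). The receptors Erbb4, Erbb2, Erbb3 and Egfr had log2 fold changes of 0.08, -0.15, -0.09 and -0.09, with edgeR adjusted p of 0.797, 0.285, 0.881 and 0.296. Of 12 neuregulin, ErbB and shedding genes, 10 were negative (median -0.07), and of 7 γ-secretase subunits, 6 (median -0.04).

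Other lists had medians close to 0. Immediate early genes were positive in 11 of 20 (median 0.02), amino acid and unfolded protein stress genes in 12 of 23 (median 0.00) and glycolysis and hypoxia genes in 10 of 20 (median -0.00), and the medians of each changed sign in at least 1 of 22 alternatives. ERK feedback and target genes were negative in 13 of 16 (median -0.05), FoxO and PI3K-Akt target genes in 13 of 15 (median -0.05), interferon-stimulated genes in 15 of 19 (median -0.05), heat shock genes in 8 of 11 (median -0.02), mitotic cell cycle genes in 18 of 28 (median -0.05) and cholesterol synthesis genes in 13 of 21 (median -0.03). Summed FoxO and PI3K-Akt targets were 324.4 to 329.2 CPM in sErbB4 libraries, against 331.4 to 338.5 CPM in Vehicle libraries. With DAPT they were 412.7 to 419.1 CPM in DAPT+sErbB4 libraries, against 427.6 to 437.8 CPM in DAPT libraries. These sums were thus slightly lower with sErbB4, with no overlap within either DAPT state. Of the lists in this paragraph, no member passed the adjusted p limit.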

How the data were processed

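RNA from cultures was sequenced as poly(A)-selected paired-end libraries. According to the study's methods and the submitters' notes, the authors used Trimmomatic for trimming, HISAT2 for alignment (build mm10) and StringTie for assembly, in versions not given in the sources used here; FastQC, MultiQC and limma are also named. They deposited expected counts for each gene in each library, with no scaling between libraries, and none above 0 is an exact whole number, so they were rounded. Whether length entered these counts is not given in the sources used here. The 1976 unnamed loci entered neither the library sizes nor the tests.

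Counts were filtered with filterByExpr by condition, normalized by TMM and tested with edgeR 4.0.16 (R 4.3.3), a quasi-likelihood F test of the sErbB4 term in a model with DAPT state (9 residual degrees of freedom). A model with a separate mean per condition, 4 in all (8 residual df), gave the effects within each DAPT state and their difference. Genes were called at a Benjamini-Hochberg adjusted p under 0.05 over all genes tested and a fold above 1.25; "rose" and "fell" in the text refer to the adjusted p alone. CPM are TMM-normalized and relative to named counts. SEs were derived from log2 fold changes and F statistics. For some genes of low level the edgeR p is larger than such an SE alone would give. Examples are the difference of effects of Slc30a3 and the average effect of Erbb2. In such cases the SE understates the uncertainty. For the average effect, edgeR p-values rest on the spread between 3 platings per condition. The residual there also takes in any difference between the sErbB4 effects in the DAPT states. In the model with a separate mean per condition, they rest on the spread between platings.

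Named genes were up to 12 in each direction by call and then p, with a mean of at least 5 CPM, up to 3 per list by p, the neuregulin and ErbB genes, and 5 by the difference of effects; further names were chosen after their values were seen. A gene that the rule selects is not reported here. The members and lists were chosen with earlier results of these data known. Replicate numbers were not used to pair the libraries in the main model. Of 18 same-number pairs between conditions, 8 had a correlation over 0.1 (range -0.669 to 0.599). Of 12 libraries, 5 were closest to their own number. Whether same-number platings shared a litter cannot be told from these correlations. Alternatives used DESeq2 1.42.0, limma 3.58.1 on log2(CPM + 2), RLE normalization, other filters, a replicate block and the omission of libraries. Within a condition, log2 CPM correlated at r of 0.964 to 0.978.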

Additional observations from a re-analysis of the deposited data

Results flagged for a closer look

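The effect of sErbB4 on Htd2 differed between the DAPT states: the effect without DAPT minus that with DAPT was -9.41 on the log2 scale (edgeR adjusted p = 0.00156). The fitted value depends on the prior count, since all 3 sErbB4 libraries were at 0, and Htd2 shares its locus with Rpp14.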

How the results depend on the processing

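The number of genes called in the average effect was 5 (3 higher, 2 lower). It was 7 when each of the 4 conditions had its own mean (5 lower), 2 with the replicate block (1 higher, 1 lower), 3 with no filter on low counts (1 lower), 8 for genes of at least 5 CPM (5 higher), 14 with DESeq2 (5 higher, 9 lower), 2 with sErbB4 replicate 1 and Vehicle replicate 3 both left out (1 higher, 1 lower) and 26 with no fold limit (12 higher, 14 lower). RLE normalization gave 5, and limma, Rn45s left out or unnamed loci kept gave 4 each. Without DAPT, 5 genes were called, 2 with the replicate block, 3 for genes of at least 5 CPM and 18 with DESeq2. With DAPT, 0 were called, and 8 with DESeq2. The difference of effects gave 1 gene, 0 for genes of at least 5 CPM and 4 with DESeq2. Leaving out each library in turn gave 0 to 9 genes in the average effect (0 to 4 higher, 0 to 5 lower), 1 to 5 without DAPT, 0 to 2 with DAPT and 1 to 3 for the difference. By adjusted p alone, 26 genes became 431 with DESeq2 and 97 among genes of at least 5 CPM, of which 24 and 25 were among the 26; the replicate block gave 6, sharing 4. The cause was not tested. Atp5c1, whose average effect was 0.01, ranged between -0.0128 and 0.0337 when single libraries were left out. List medians kept their sign in the 22 alternatives, except immediate early (1), cholesterol synthesis (1), stress (12) and glycolysis genes (6) and endothelial markers (1, tested in 21).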
